A study of Mus musculus with 12 samples.

Results

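The 5S ribosomal RNA (rRNA) genes of the mouse lie in a tandem repeat on chromosome 8, and 49 of the 532 genomic stretches with deposited coverage were members of that repeat. A member was a chromosome 8 stretch in which at least 80% of bases carried a non-integer coverage value in RPC4 replicate 1. Non-integer values arise where 1 read is divided among several matching places, so the members were chosen by the coverage of that library, whose own values are given as a description only. Among the members just inside the threshold, n-R5s127 had 91.4% and n-R5s129 had 95.5% of such bases, while just outside it n-R5s115 had 63.2% and the next chromosome 8 stretch had 49.9%. All 49 members carried an annotated 5S gene, which matches the label.

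The study mapped RNA polymerase III (Pol III) in mouse liver by chromatin immunoprecipitation and sequencing (ChIP-seq), in which DNA bound by a protein is recovered with an antibody and read. It has 12 libraries in 6 groups of 2. RPC1 and RPC4 are Pol III subunits, RPB2 is an RNA polymerase II (Pol II) subunit, 2 groups are histone marks, and input is chromatin sequenced without an antibody. All came from C57/BL6 male mice aged 12 to 14 weeks, kept for 2 weeks in 12 h light and 12 h dark and then fed only between Zeitgeber time (ZT, hours after lights on) 12 and 24 for 7 days. Livers of 5 mice were taken at ZT 2 and, as the biological replicate, of 5 mice at ZT 26. The labels do not say which replicate number is which time or whether the livers were pooled, so p-values measure the spread between these libraries. The histone labels conflict: libraries titled H3K4 name an H3K36me3 antibody and libraries titled H3K36 name an H3K4me3 antibody. The names H3K4-titled and H3K36-titled therefore follow the titles, and the labels do not settle which mark each group holds.

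5S rRNA is a structural RNA of the large ribosomal subunit and the only ribosomal RNA that Pol III makes. Its genes have a type 1 promoter inside the transcribed region, made of box A, an intermediate element and box C, as mapped in Xenopus. The zinc finger protein TFIIIA binds this internal region, TFIIIC and TFIIIB join it, and Pol III then starts upstream of the boxes and stops at a run of T.

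The 32 members with the most common gene sequence shared a 119 bp gene, that of n-R5s100, the first copy (chr8:126062686-126062804, minus strand, mm9), to which all others were compared. Box A was taken as positions 50 to 64, the intermediate element as 67 to 72 and box C as 80 to 97. Positions count from 1 at the 5′ end of the gene and follow the Xenopus numbering, and in each difference the base of the common gene comes first. Of the other members, 7 carry G89T, A90T and G93C in box C, 4 carry T62A in box A, 3 carry C44T before box A, 1 carries T33C, and 2 are 10 bases shorter. The longest T run over the last bases of the gene and the bases just after it was 5 bases in every copy. Where Pol III stops was not measured.

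The array spanned chr8:126062536-126147795, 85260 bp. All its genes lay on the minus strand, 1 in each unit of 1665 to 1727 bp (median 1698 bp). The annotation named 51 5S genes in it, of which 50 had a stretch. The gene without one, n-R5s109, was not analysed here. The copy n-R5s115, with C3A and G86A, the latter in box C, had a stretch but was not a member. Its mean coverage, 3.95 reads per base in RPC1 and 0.524 in input, was the lowest of the 50 in both. The protein-coding neighbours were Gas8, ending 2114 bp before the array, and Rhou, starting 30034 bp after it. Among the members there were 9 gene sequences. Of the 49 members, 19 had at least 1 copy identical over the stretch and 1 read length on either side, and all 26 such pairs had identical coverage in every library. Copies are therefore not independent measurements, and the summed array is the unit for comparing groups.

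Pol III was present on the array well above input in the coverage as deposited. The array mean was 15.6 and 13.4 reads per base in the RPC1 libraries and 20.4 in RPC4 replicate 2, against 1.43 and 1.06 in the input libraries. RPC4 replicate 1, which chose the members, had 25.6. No Pol III library overlapped an input library. These are the authors' coverage values with no correction for library depth, which the files do not give because they list Pol III stretches only.

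Scaled to the stretches with the least RPC1 coverage, the array was 3.74 ± 0.48 (SE) log2 units higher in RPC1 than in input (limma, adjusted p = 1.72e-05) and 3.59 ± 0.59 higher in RPC4 replicate 2 than in input (limma, adjusted p = 0.000158). Of the 435 features tested with the array as 1 of them, 66.4% were higher in RPC1 and 64.1% in RPC4. All 49 copies passed the filter on low values, and all 49 were higher in RPC1 and in RPC4, where 70.9% and 68.6% of all 478 tested stretches were. The median copy stood 3.83 log2 units above input for RPC1, beside a median of 3.83 for all tested stretches, so a copy resembled the typical stretch. The anchor stretches were chosen by their low RPC1 coverage, so this scaling by itself favours higher RPC1 values at the other stretches. The RPC1 differences and p-values above depend on that choice and are not independent evidence that RPC1 exceeds input. The direction depended on the scaling: with each file set to the same total the array was -1.23 log2 units for RPC1 and -1.45 for RPC4 relative to input, and neither was called, while 0 copies were higher and 28 and 11 of 49 were lower, beside 41.4% and 31.8% of all tested stretches. With the median of ratios over all stretches the array stood at -0.0097 for RPC1 and -0.045 for RPC4. The array made up 3.65% and 4.40% of the coverage in the RPC1 files and 3.42% in RPC4 replicate 2, against 10.8% and 8.52% in the input files. RPC1 and RPC4 did not differ detectably on the array (RPC1 minus RPC4 0.15 ± 0.59 log2 units, limma, adjusted p = 0.998). Over the 49 copies the difference in limma ran between -0.090 and 0.395 log2 units. Its median was 0.154, beside -0.055 for all tested stretches. RPC4 is 1 library here, which limits what the fit can tell.

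**Figure D1:**
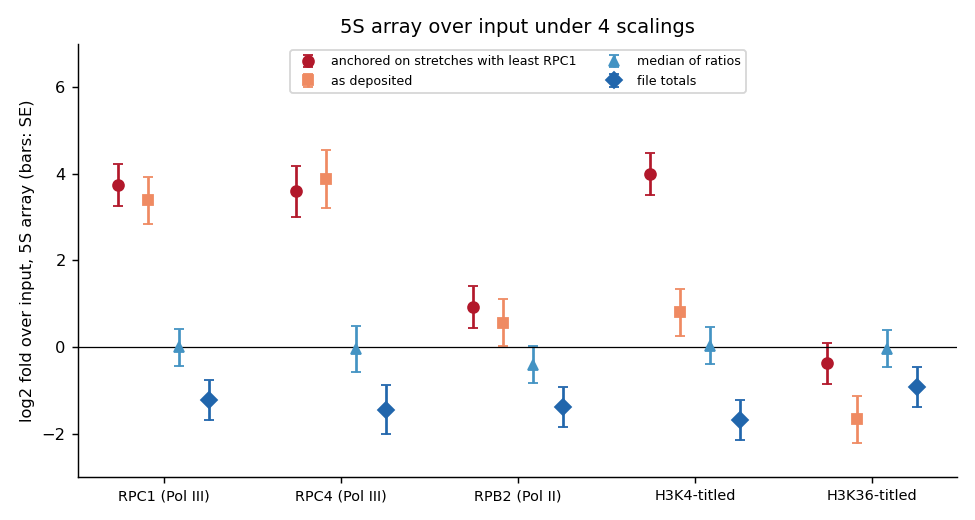
The 5S array relative to input as log2 fold with its standard error, under 4 scalings (symbols), for each immunoprecipitated group on the horizontal axis. RPC1 and RPC4 stand at 3.74 and 3.59 with the anchored scaling and below 0 with file totals.

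The summed array held more reads than any other stretch in the Pol III libraries and in input. The summed copies held 4225 and 3621 read equivalents in the RPC1 libraries and 5502 in RPC4 replicate 2, which was 2.07, 2.69 and 2.14 times the highest other stretch, against 8.24 and 7.11 times in the input libraries. Against 7SK, a Pol III RNA that restrains the elongation factor P-TEFb, it held 6.58 and 6.55 times as many in the RPC1 libraries, against 47.9 and 36.1 times in the input libraries. These ratios sum 49 copies. Per base the order turned round: 7SK had 77.3 and 66.6 reads per base in the RPC1 libraries, and RNase MRP RNA, which takes part in ribosomal RNA processing, had 92.5 and 59.8. The array mean ranked 217 and 212 when placed among the 483 other stretches in these libraries.

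Other annotated Pol III RNA genes, the spliceosomal U6 and U6atac, Y RNA, 7SK and RNase MRP RNA, gave 10 tested stretches, compared with the anchored scaling only. All 10 were higher in RPC1 than in input, with 2.99 to 8.05 log2 units and a median of 6.20, beside 66.4% of all features. In RPC4 replicate 2 all 10 were higher by 3.24 to 8.61, beside 64.1%. In RPB2, 9 of 10 were higher, with a median of 2.41, beside 43.0%.

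Pol III lay over the gene. In the mean of 47 full-length copies the coverage maximum was at positions 56 and 50 in the RPC1 libraries and 65 in RPC4 replicate 2, all in or within 1 base of box A. Coverage counts reads of 76 bp from fragments of 250 bp, so a maximum does not place Pol III within a box. The maximum of both input libraries was at position 269, the downstream edge of the window. The gene held 51.2% and 52.5% of the coverage of the 419 bp window in the RPC1 libraries and 53.1% in RPC4 replicate 2, against 31.9% and 33.1% in the input libraries. RPB2, with 42.2% and 35.8%, and H3K4-titled libraries, with 38.6% and 36.7%, were above input as well. Their maxima also lay over the gene, at positions 83 and 113 (RPB2) and 67 and 49 (H3K4-titled). The H3K36-titled libraries had 31.2% and 30.0%. Every Pol III library was above both input libraries, but 3 against 2 libraries cannot give a two-sided exact permutation p under 0.2, which is what was found.

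**Figure D2:**
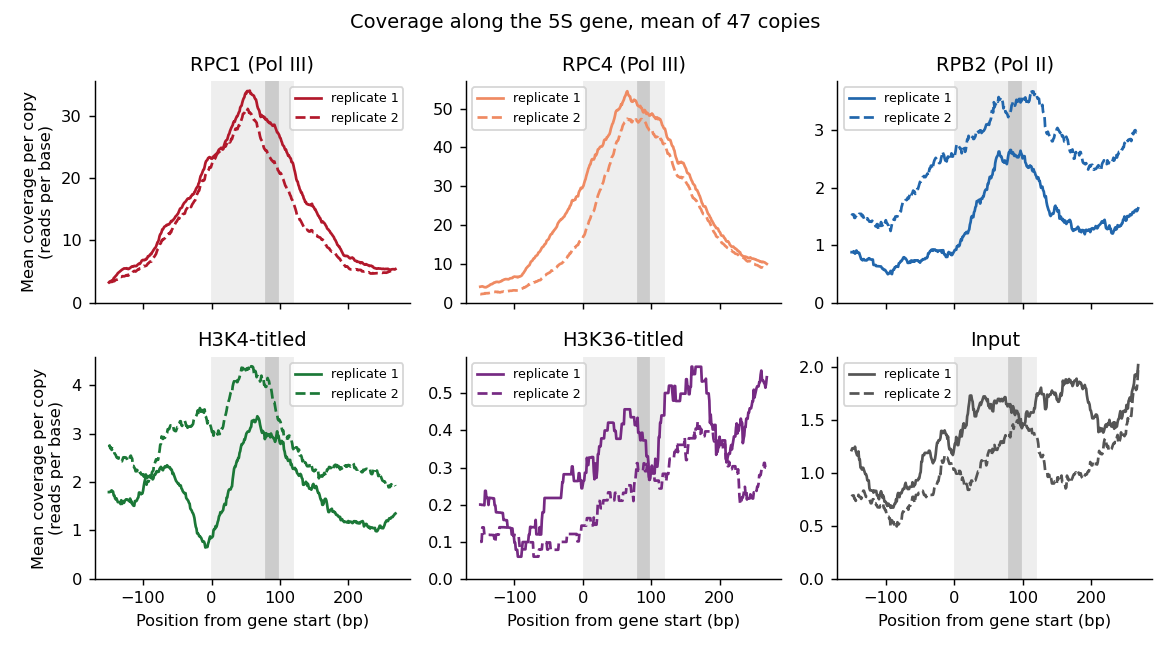
Mean coverage in reads per base (vertical) against position from the gene start in bp (horizontal) for 47 copies, 1 panel per group and 1 line per replicate, with the gene in light and box C in dark grey. The Pol III lines rise to 1 maximum over the gene near positions 50 to 65, and the input lines have none there.

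Coverage after the gene was 0.880 and 0.761 times that before it in the RPC1 libraries and 3.18 times in RPC4 replicate 2, against 1.680 and 1.503 times in the input libraries. RPC4 replicate 1, at 1.74, lay near input, so the high value rests on RPC4 replicate 2 alone. Each RPC1 library lay below both input libraries, and RPC4 replicate 2 lay above both. Pooled, these opposite differences cancelled (exact permutation test, two-sided p = 1, 3 against 2 libraries). With 0.2 as the smallest p such a test can give, it could not decide whether either subunit differed from input. The inner share, the log2 ratio of the central part to the outer parts of a stretch, was 1.19 ± 0.51 (SE) higher in RPC1 than in input and was not called (limma, adjusted p = 0.317), where 0.460% of stretches were. It was 0.25 ± 0.51 higher in the H3K4-titled libraries than in input (limma, adjusted p = 0.825), where 0.230% of stretches were called higher and 1.15% lower. In RPB2 it was 0.37 ± 0.51 higher (limma, adjusted p = 0.896), and 0% of stretches were called. The RPC4 replicate 2 estimate was 1.265. Medians over all tested features were 0.83 for RPC1, 0.87 for RPC4, 0.325 for RPB2 and -0.55 for H3K4-titled libraries.

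Pol III coverage as assigned to the copies was uneven. Reads were divided among matching copies, so it does not measure Pol III on each copy alone. Its coefficient of variation over the 49 members was 25.2% and 25.6% in the RPC1 libraries, against 16.3% and 19.0% in the input libraries. Mean RPC1 coverage over both replicates ran between 5.09 reads per base in n-R5s129 and 17.7 in n-R5s103, n-R5s117 and n-R5s143, which had the same coverage in every library. The 2 lowest copies were n-R5s129 and n-R5s127, with 5.64 and 4.53 and with 5.82 and 4.91 reads per base. They also had the smallest share of non-integer bases in the other libraries, 91.0% and 89.4%. In input n-R5s129 had 1.16 and 0.980 reads per base, where members ranged over 0.936 to 1.99 and 0.592 to 1.70. Counted up from the lowest of the 49 members it stood at place 9 in replicate 1 and 13 in replicate 2. In the same libraries n-R5s127 had 1.01 and 0.744, at places 3 and 4, so it was low in input as well.

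**Figure D3:**
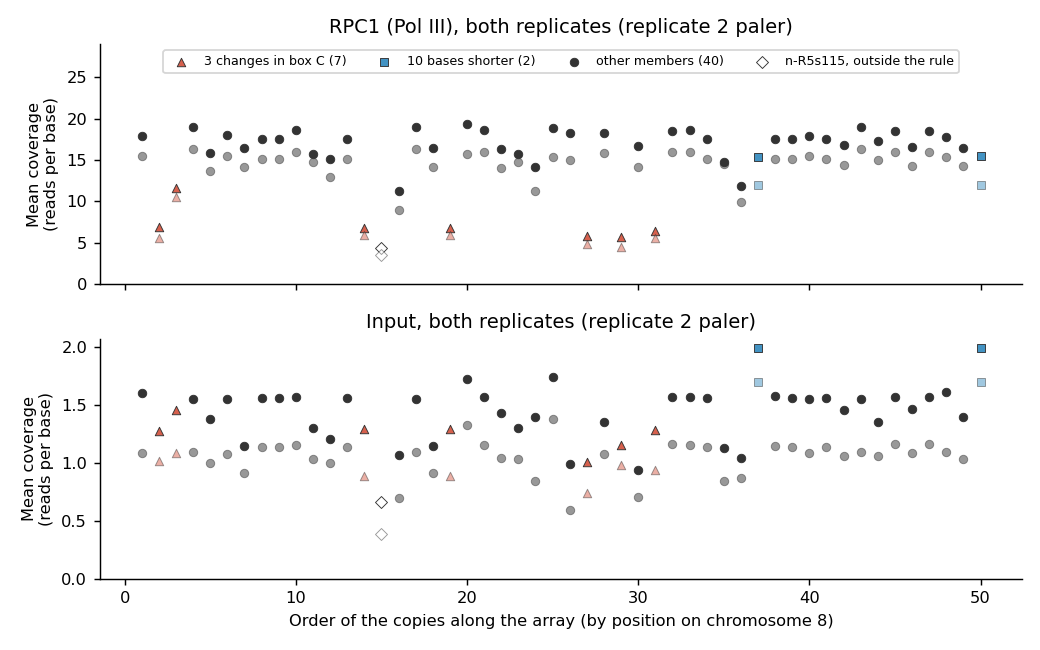
Mean coverage of each copy in reads per base (vertical) in the order of the copies along the array (horizontal), RPC1 above and input below, with replicate 2 paler and symbols by gene sequence. In RPC1, 6 of the 7 copies with changes in box C lie below all other members, and in input these copies lie among the others.

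Of the 7 copies with changes in box C, 6 were the lowest of all members in both RPC1 libraries, and all 7 were the lowest in RPC4 replicate 2. The next copy in each was AC141881.7, which has the common gene, with 11.3, 8.94 and 14.8 reads per base. The grouping by box C was made after the values were seen, so it is described without a test. The 7 copies n-R5s101, n-R5s102, n-R5s114, n-R5s119, n-R5s127, n-R5s129 and n-R5s131 carry G89T, A90T and G93C together. Their mean coverage was 0.418 and 0.417 times that of the 40 other full-length members in the RPC1 libraries and 0.441 times in RPC4 replicate 2, against 0.874 and 0.888 times in the input libraries. In the H3K4-titled libraries it was 0.620 and 0.561 times, and all 7 were the lowest members in replicate 1 and 6 in replicate 2. The ratio was 0.818 in both RPB2 libraries and 0.905 and 1.467 in the H3K36-titled libraries. Low coverage of these copies was thus not particular to the Pol III libraries.

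Reads over the changed bases could be told apart: those assigned to these copies at position 90 summed to whole numbers in every library, with 0 left over at 3 decimals. These 7 copies are 14.6% of the 48 full-length copies with a stretch, where n-R5s115, with G86A in box C, counts among those without the changes. At position 90 the 7 copies held 12 of 1335 reads in RPC1 replicate 1 (0.899%, exact 95% binomial interval 0.465 to 1.57%) and 13 of 1063 in replicate 2 (1.22%, 0.653 to 2.08%). In RPC4 replicate 2 they held 18 of 2200 reads (0.818%, 0.486 to 1.29%).

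In input the same copies held 8 of 75 reads in replicate 1 (10.7%, 4.72 to 19.9%) and 9 of 68 in replicate 2 (13.1%, 6.24 to 23.6%). Per copy, Pol III reads with the changes were 0.053 and 0.072 times those without in the RPC1 libraries, against 0.703 and 0.886 times in the input libraries. Intervals cover counting error only, since reads are not independent molecules after 15 cycles of PCR. Totals that include divided reads were rounded.

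**Figure D4:**
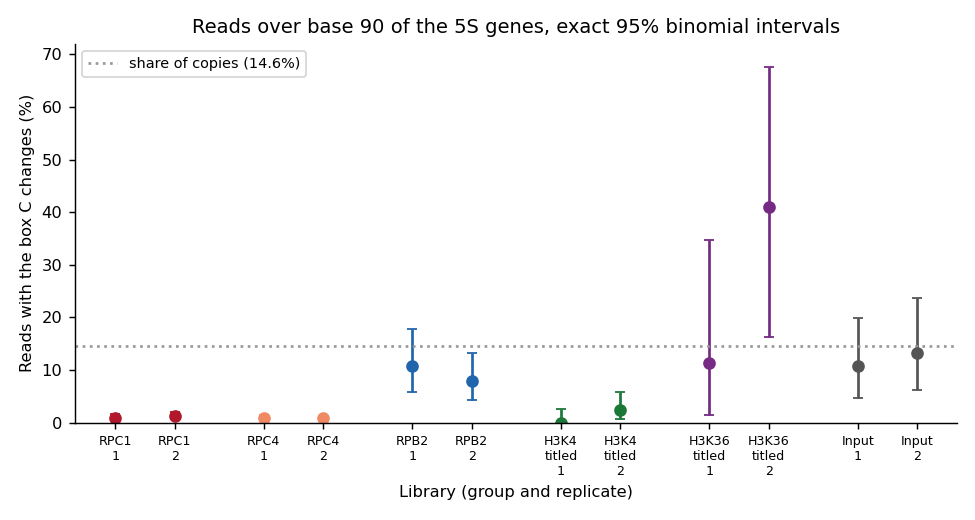
Percent of reads over position 90 that carry the box C changes (vertical) in each library (horizontal), with exact 95% binomial intervals and the share of copies as a dotted line. The RPC1 and RPC4 libraries lie between 0.818 and 1.22%, below the input libraries at 10.7 and 13.1%. The H3K4-titled libraries, at 0 and 2.33%, lie below input as well.

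Along these copies RPC1 coverage was lowest at position 89 in both replicates, while in RPC4 replicate 2 the lowest value was at the upstream edge of the window. In box C they averaged 2.64 and 2.60 reads per base in the RPC1 libraries, against 33.0 and 26.5 in the other full-length members. Outside the changed bases reads were shared: n-R5s102, whose gene has no other difference, had 11.6 and 10.5 reads per base over its whole stretch in the RPC1 libraries, the highest of the 7. It was singled out after the values were seen.

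**Figure D5:**
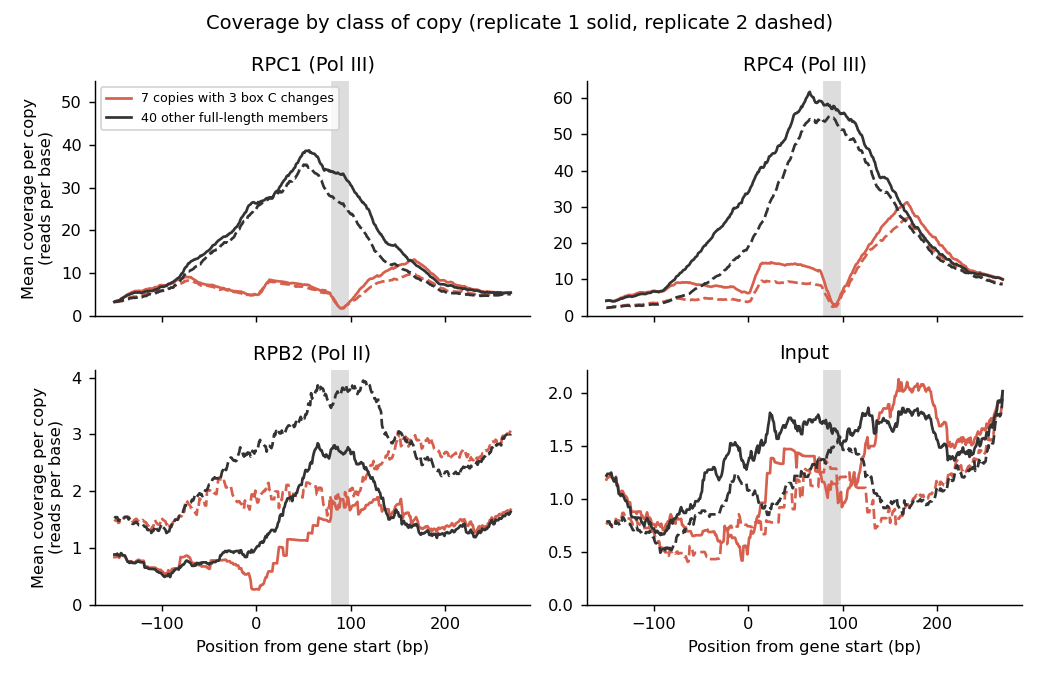
Mean coverage in reads per base (vertical) against position from the gene start (horizontal) for the 7 copies with box C changes and the 40 other full-length members, 1 panel per group. In RPC1 and RPC4 the 7 copies dip in box C (grey), and towards the downstream end of the window the lines of the classes run close together.

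The other changes did not all behave alike in Pol III: T62A and C44T stood near their share of copies, while G1A, T2C and T33C stood below it. G1A and T2C lie at the start of the gene and only in box C copies, in 4 of them (8.33% of all copies) and 6 of them (12.5%). G1A was carried by 0.184% and 0.475% of reads in the RPC1 libraries, against 2 of 60 (3.34%) and 2 of 49 (4.12%) in the input libraries. T2C was carried by 0.636% and 0.561% in the RPC1 libraries, against 3 of 60 (5.00%) and 4 of 48 (8.41%) in the input libraries. A low share was thus also measured at the start of the gene in these copies, and the 2 places cannot be told apart in the 6 copies that carry changes at both.

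C3A and G86A of n-R5s115 and C34A, T35A and C36A of n-R5s127 had 0 reads in all 12 libraries, input included. T62A, in box A of 4 copies (8.33% of copies), was carried by 9.01% and 8.98% of reads in the RPC1 libraries and 9.38% in RPC4 replicate 2, against 3 of 78 reads (3.84%) and 2 of 57 (3.49%) in the input libraries. C44T, in 3 copies (6.25%), was carried by 6.64% and 6.13% in the RPC1 libraries, against 7.39% and 11.2% in the input libraries. The input intervals reached 10.8% and 12.1% for T62A and overlapped those of Pol III, so no difference was detectable at this depth. T33C, in n-R5s136 alone (2.08% of copies), was carried by 4 of 1372 reads (0.292%) and 5 of 1292 (0.387%) in the RPC1 libraries, against 0 of 74 and 0 of 46 in the input libraries, whose exact 95% intervals reach 4.86% and 7.71%. Input was thus too shallow to say how many reads of that copy to look for.

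The end copies were not extreme in RPC1. In some other libraries they were among the highest members, each level with a copy that is not at an end. The first copy, n-R5s100, had 17.9 and 15.5 reads per base in the RPC1 libraries (members' medians 17.2 and 15.0), against 1.61 and 1.09 in the input libraries. It had 1.90 and 3.84 in the RPB2 libraries (medians 1.43 and 2.58) and 2.11 and 4.07 in the H3K4-titled libraries (medians 1.93 and 2.98), the highest of all 49 members in replicate 2 of both groups. AC141881.1, which is not an end copy, was level with it, at 1.900 and 3.835 in RPB2 and 2.105 and 4.051 in H3K4-titled libraries.

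The last copy, annotated 5S_rRNA, is 1 of 2 copies with the 10 base deletion and had 15.5 and 12.0 in the RPC1 libraries, against 1.99 and 1.70 in the input libraries. Its input values were at the top of the range of the members, level with AC141881.2. Its RPC1 over input as deposited was 7.45. In the RPB2 libraries it had 1.99 and 3.09, the highest of all members in replicate 1, and in the H3K4-titled libraries 1.67 and 2.48. AC141881.2, which is not an end copy, was level with it there too, at 1.992 and 3.088 in the RPB2 libraries.

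Pol II on the array was not called above input. RPB2 libraries had 1.40 and 2.57 reads per base, against 1.43 and 1.06 in input, so the groups overlapped. The array was 0.92 ± 0.48 log2 units higher (SE, limma, adjusted p = 0.155), where 43.0% of features were called higher. Of the 49 copies, 2 were higher, beside 41.2% of all tested stretches: n-R5s100 (1.30 log2 units, adjusted p = 0.0406) and AC141881.1 (1.30, adjusted p = 0.0412). That count was not stable when single libraries were left out, among them either RPC1, H3K4-titled or RPB2 library and input replicate 2. With file totals 28 of 49 copies were lower than input, beside 22.2% of stretches. Reads with the box C changes made up 10.8% (5.90 to 17.8%) and 7.97% (4.32 to 13.3%) of RPB2 reads over position 90.

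The histone libraries differed from each other. H3K4-titled libraries had 1.82 and 2.84 reads per base on the array, against 1.43 and 1.06 in input, and did not overlap it. With the anchored scaling the array was 3.99 ± 0.48 log2 units higher (SE, limma, adjusted p = 1.01e-05) and all 49 copies were higher, beside 67.8% of stretches higher and 2.93% lower. With the array as 1 feature, 63.2% were higher and 3.45% lower. As deposited the difference was 0.81 and was not called (limma, adjusted p = 0.186), and with file totals the array was lower, at -1.68 (limma, adjusted p = 0.0165), and so were 47 of 49 copies, beside 52.1% of stretches. The anchor in these libraries was low, 0.0572 and 0.106 reads per base, against 0.750 and 0.918 in input.

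Of the reads over position 90, 0 of 137 and 4 of 172 (2.33%, 0.637 to 5.85%) in the H3K4-titled libraries carried the box C changes. The exact 95% interval of 0 of 137 reaches 2.66%. H3K36-titled libraries had 0.341 and 0.223 reads per base, below both input libraries as deposited. Their scaled difference from input was -0.38 ± 0.48 log2 units (SE, limma, adjusted p = 0.691) and no copy was called, also at an unadjusted p under 0.05, beside 2.30% of stretches higher and 5.02% lower. As deposited, 48 of 49 copies were lower, beside 64.0% of stretches. With the array as 1 feature, 2.53% were higher and 4.60% lower. At position 90 the box C copies held 2 of 17.5 reads (11.4%, 1.38 to 34.7%) and 6 of 14.7 (40.9%, 16.3 to 67.7%) in them, so replicate 2 lay above the share of copies.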

How the data were processed

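The deposited files hold coverage as a signal per base (reads over each base, with reads of several matching places divided among them), per the file values; the build was mm9, per the submitters' processing notes. No source used here names the aligner or any filter. Positions were read as 1-based with the end excluded: in 42 of 43 pairs of copies that differ at 1 base, the coverage difference was centred on that base. Gene names came from the GENCODE annotation, and gene sequences were compared in the genome, of that build; the sequences are not reported here. Coverage was averaged per stretch, scaled to the 10% trimmed mean of the 25% of other stretches with the least RPC1 coverage, and tested on log2(value + 0.360) with limma 3.58.1 (R 4.3.3, mean-variance trend, Benjamini-Hochberg, 0.05) over 11 libraries, without RPC4 replicate 1, so RPC4 rests on replicate 2, assumed to vary like the other groups. Stretches under the 0.1 quantile were left out, leaving 435 features with the array as 1 and 478 with its copies apart. The fit was tested on simulated data. Copies named singly were the ends, the extremes of RPC1 and of non-integer share, and the most different genes. The members and lists were chosen with earlier results of these data known. Other scalings, anchors, pseudocounts, filters, a replicate block and leaving out each library were tried.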

Additional observations from a re-analysis of the deposited data

How the results depend on the processing

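Scaling decided the direction over input. With file totals the array was -1.23 (RPC1), -1.45 (RPC4), -1.38 (RPB2) and -1.68 (H3K4-titled, limma, adjusted p = 0.0165) log2 units; 0 copies were higher in each, and 28, 11, 28 and 47 were lower. With the median of ratios it was -0.0097, -0.045, -0.41 and 0.028. As deposited, RPC1 minus RPC4 was -0.49 and H3K4-titled 0.81. H3K36-titled was -1.67 (limma, adjusted p = 0.0152), with 48 copies lower, beside 64.0% of stretches. With all 12 libraries RPC1 minus RPC4 was -0.11. The cause was not tested. The RPB2 count of copies was 0 as deposited, with a smaller or a larger anchor set, a smaller pseudocount, no trend or the replicate block, and 0 to 6 leaving out 1 library. No share over all stretches is given beside these counts, so they show only that the call was unstable. With the replicate block the array was 3.74 in RPC1; the block changed no other call. Replicate numbers did not pair the libraries (correlations -0.088 to 0.136, 1 of 15 over 0.1). Counting box C reads at positions 89 or 93, chosen after seeing the data moved those shares by less than the spread between replicates. With 2 libraries a group, leaving out 1 returns the value of the other and shows nothing of stability. Input depth limits the box C comparison, with 75 and 68 reads.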
